A study of Homo sapiens with 6 samples.

Results

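GC-rich simple repeats that contain CpG are tandem runs of a short unit in which a cytosine is followed directly by a guanine. They were selected here by name alone. An entry of the count table written as a unit in brackets followed by n was taken where the unit had 5 or more bases, a G plus C share of at least 60% and at least 1 CpG step when the unit is closed to a circle, so that its last base meets its first. This rule found 1608 members among the 14298 simple repeats and 15641 entries of the table. By CpG steps per unit, 1251 members had 1, 323 had 2 and 34 had 3, and no unit had 4 or more. Units ran from 5 to 10 bases.

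Chromatin-associated RNA was sequenced from H9 cells (an established line of human embryonic stem cells), and the labels name no genetic change. Of 6 libraries, 3 (Nchr1-3) are labelled naive, a state maintained in RSeT medium, and 3 (Pchr1-3) are labelled primed, the conventional state of such lines. The growth protocol given for all 6 is the RSeT one, and only the treatment label marks a library as primed. Separate cultures are not stated, and p-values therefore measure only how these libraries vary, which may be technical variation. The table lists repeats summed over their genomic copies, so protein-coding markers of the 2 states could not be looked up and no member has a coordinate. Transcripts of HERVH-int, a retroviral repeat that pluripotent human cells are known to express, were present in every library at 11938 to 42442 TMM CPM (CPM after TMM scaling, edgeR's correction for composition).

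In vertebrate genomes CpG is the main target of DNA methylation, and most CpG outside islands has been lost by mutation. GC-rich tandem repeats that keep CpG are found in CpG islands around promoters and first exons, in subtelomeres and in ribosomal DNA. Naive human embryonic stem cells are known for lower DNA methylation than primed ones. Methylation was not measured in these data.

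The sequences below show 3 copies of a unit, 5′ to 3′, with each CpG in capitals. The first 3 are the members called lower in naive cells also in a fit without primed library 1, the next is the member called higher, and the last 3 are the most abundant. A unit such as that of (GCCCAGC)n holds its CpG only where copies join.
Simple repeat entry (GCCCAGC)n: gcccagCGcccagCGcccagc
Simple repeat entry (GCTCGGC)n: gctCGgCGctCGgCGctCGgc
Simple repeat entry (GGCGGT)n: ggCGgtggCGgtggCGgt
Simple repeat entry (GGACG)n: ggaCGggaCGggaCG
Simple repeat entry (CGAGCCG)n: CGagcCGCGagcCGCGagcCG
Simple repeat entry (CCGGCC)n: cCGgcccCGgcccCGgcc
Simple repeat entry (GGCCC)n: ggccCGgccCGgccc

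Library totals ran from 7192242 to 17791046 counts except in primed library 2, which had 118793. One count in that library is worth 5.59 TMM CPM, against 0.0702 to 0.127 in the others, and 3 counts correspond to 25.3 CPM of its plain total. Alpha satellite took 25.3% to 42.9% of counts in naive and 0.221% to 0.625% in primed libraries, and ribosomal RNA entries took 0.169% (naive library 3) to 17.7% (primed library 1). These shares move with the groups or with single libraries. With both kinds of entry removed before the fit, 71 of 272 tested members were called lower in naive cells. In that fit 8.81% of all entries were called lower. With both kinds kept, 59 of 255 members and 7.77% of all entries tested were called lower. In bulk RNA, fewer transcribing cells and less RNA per cell cannot be told apart.

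The members' joint share of all counts was 0.214%, 0.158% and 0.172% for naive libraries 1 to 3 and 0.511%, 0.275% and 0.3896% for primed libraries 1 to 3. On this scale every naive library lay below every primed one. For primed library 2, with 327 member counts, the share had a 95% Wilson interval of 0.247% to 0.307% (counting error only, since reads are not independent molecules). The mean share was 0.181% ± 0.0295 (SD, n = 3) for naive libraries, against 0.392% ± 0.118 (SD, n = 3) for primed libraries.

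The separation depended on the total used. Once alpha satellite and ribosomal RNA were taken out of the total, the members took 0.312%, 0.306% and 0.263% in naive libraries and 0.623%, 0.289% and 0.425% in primed libraries. Here primed library 2 fell inside the naive range. Among counts in simple repeats alone, the shares were 5.41%, 5.77% and 5.89% in naive and 6.98%, 5.04% and 6.37% in primed libraries, and the groups overlapped again.

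The 2 members with the most counts in all, (CGAGCCG)n and then (GGCCC)n, jointly held 11.9% to 39.3% of a library's member counts and varied widely between libraries. The former alone held between 0.512% and 33.05%, and the latter between 0% and 32.1%. With all members the summed level was 2378, 2512.5 and 2017 TMM CPM in naive libraries 1 to 3. It was 4651, 1829 and 3146 TMM CPM in primed libraries 1 to 3, with primed library 2 lowest of all. Without (CGAGCCG)n and (GGCCC)n, a setting not planned beforehand, it was 1670, 1526 and 1359 TMM CPM in naive libraries. In primed libraries it was then 3208, 1611 and 2406 TMM CPM. Primed libraries 1 and 3 stood above all naive libraries, while primed library 2, with a 95% exact Poisson interval of 1430 to 1808 TMM CPM from 288 counts, was within their range.

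**Figure D1:**
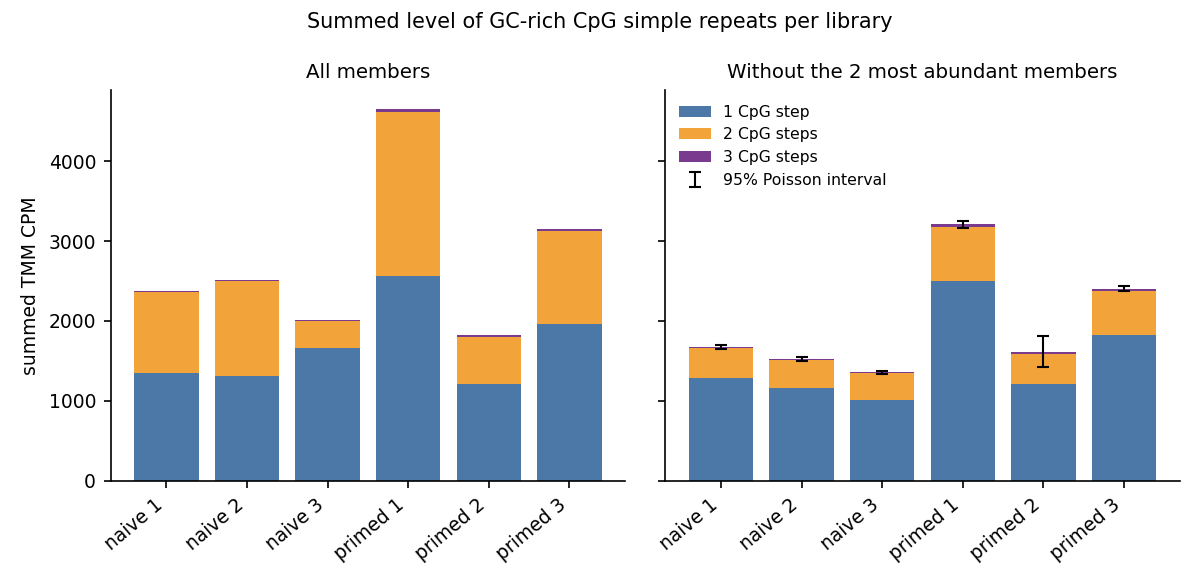
Summed TMM CPM of all members in each of the 6 libraries, stacked by CpG steps per unit, with all members (left) and without the 2 most abundant (right, with 95% Poisson intervals). With all members, primed libraries 1 and 3 reach 4651 and 3146 TMM CPM, and primed library 2 is lowest of all at 1829. Without the 2 most abundant, primed libraries 1 and 3 reach 3208 and 2406 TMM CPM. Primed library 2 then lies at 1611 beside the naive libraries at 1359 to 1670.

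By CpG steps, the same sums without the 2 most abundant members were 1285, 1160 and 1018 TMM CPM in naive and 2494, 1208 and 1827 TMM CPM in primed libraries for units with 1 step. Units with 2 steps gave 371, 352 and 326 TMM CPM in naive and 676, 375 and 554 TMM CPM in primed libraries. For the 34 units with 3 steps the sums were 14.1, 14.2 and 15.4 TMM CPM in naive and 37.7, 27.97 and 25.3 TMM CPM in primed libraries, with 5 counts in primed library 2. On these sums primed libraries 1 and 3 were above the naive libraries in each class. Primed library 2 overlapped the naive range for 1 step. For 2 steps it exceeded the highest naive value by less than the 5.59 TMM CPM that 1 of its counts is worth. With all members kept, units with 1 step gave 1353, 1316 and 1665 TMM CPM in naive and 2564, 1208 and 1961 in primed libraries. Units with 2 steps then gave 1011, 1182 and 336 against 2049, 593 and 1160 TMM CPM. Primed library 2 was then lowest for 1 step, and primed libraries 2 and 3 lay below naive library 2 for 2 steps.

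Most members were too rare for a test of their own. Of the 1608, 463 had 0 counts in every library and 255 passed edgeR's filter on low counts, while 890 others had counts, with a median total of 8 over the 6 libraries. The 255 held between 88.3% and 93.0% of member counts in each library. Those left out summed to 191, 224.9 and 237 TMM CPM in naive and 424, 129 and 315 TMM CPM in primed libraries. Primed library 2 was the lowest of the 6 here. At the lower edge of the rule, 85 CpG members with a G plus C share of 60% to under 65% held 251 counts in all, and 50 CpG units just outside, from 55% to under 60%, held 189. None on either side reached the filter.

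Among the 255 members tested, 59 were lower and 1 was higher in naive cells, and 195 did not pass (quasi-likelihood test of edgeR, p adjusted by Benjamini-Hochberg, threshold 0.05). Over all 3219 entries tested, 7.77% were called lower and 4.94% higher, so 23.1% of members called lower compares with that background. The median log2 change of the tested members was -0.89, with 234 of 255 below 0, beside a median of -0.0046 over all entries. Because the filter admits a member partly through the group in which it is high, these figures describe the tested members and are no estimate for all 1608. By DESeq2 on the same entries 23 members were lower, against 3.7% of all entries, and 0 were higher (1 at an unadjusted p under 0.05).

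The count of lower members rested on primed library 1. Without it, 3 of 277 tested members were called lower, beside 0.202% of all entries, and the median was -0.59. That fit compares the naive libraries with primed library 3 and the shallow primed library 2. Of the 255 members, 154 had their highest TMM CPM in primed library 1 and 25 in primed library 3. The median log2 ratio to the naive mean (with 0.1 TMM CPM added to both) was 1.14 for primed library 1 and 0.60 for primed library 3, and 237 and 217 of the 255 were above it. For primed library 2, where 145 of the 255 had 0 counts, that median was -3.59 and 97 were above the naive mean. All naive libraries lay below all primed ones for 66 members, or 25.9%, where 11% of all entries tested did so. The 145 tested members with 0 counts in primed library 2 could not be among these 66. Where all naive levels of a member are below 5.59 TMM CPM, 1 count in primed library 2 puts that library above them.

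**Figure D2:**
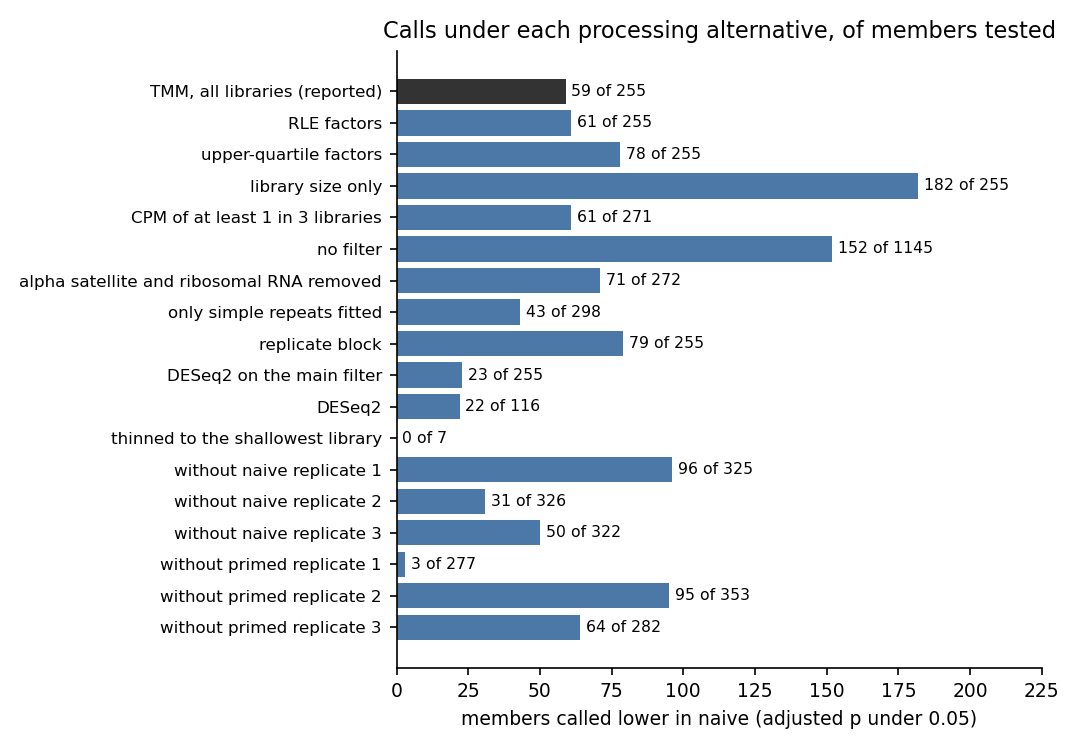
Members called lower in naive cells (bars) out of those tested (labels) under each processing setting. The reported fit calls 59 of 255, while the fit without primed library 1 calls 3 of 277 and scaling by library size alone calls 182 of 255 (and 32.6% of all entries).

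The median change did not run steadily with the number of CpG steps. Of 179 tested units with 1 step, 43 were lower, 1 was higher and the median log2 change was -0.96. Of 71 with 2 steps, 14 were lower and the median was -0.68, with 0 called higher by edgeR or DESeq2 (0 at an unadjusted p under 0.05). Of 5 with 3 steps, 2 were lower and the median was -0.92. Called lower were thus 24.02%, 19.7% and 40% of the tested units, the last from 5 members only. Members share libraries and sequence, so the difference between classes was given no test.

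The classes were then compared at equal unit length, and separately by base content and by steps relative to unit length. Length and base content were not held equal together for these classes. Among 6-base units the median was -1.002 with 1 step (115 tested) and -0.64 with 2 steps (33 tested), and among 7-base units it was -1.22 (30 tested), -0.73 (27 tested) and -1.24 (4 tested) for 1, 2 and 3 steps. Units made of G and C only, which can hold more CpG, had a median of -0.71 (17 of 100 lower), and units that also hold A or T had -0.97 (42 of 155 lower). Within the former, the medians were -0.86 with 1 step and -0.65 with 2 steps. Within the latter, they were -1.04 and -0.85. Relative to unit length, the median was -1.03 for members with under 2 steps per 10 bases (147 tested), -0.83 from 2 to under 3 (61 tested) and -0.67 for 3 or more (47 tested).

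**Figure D3:**
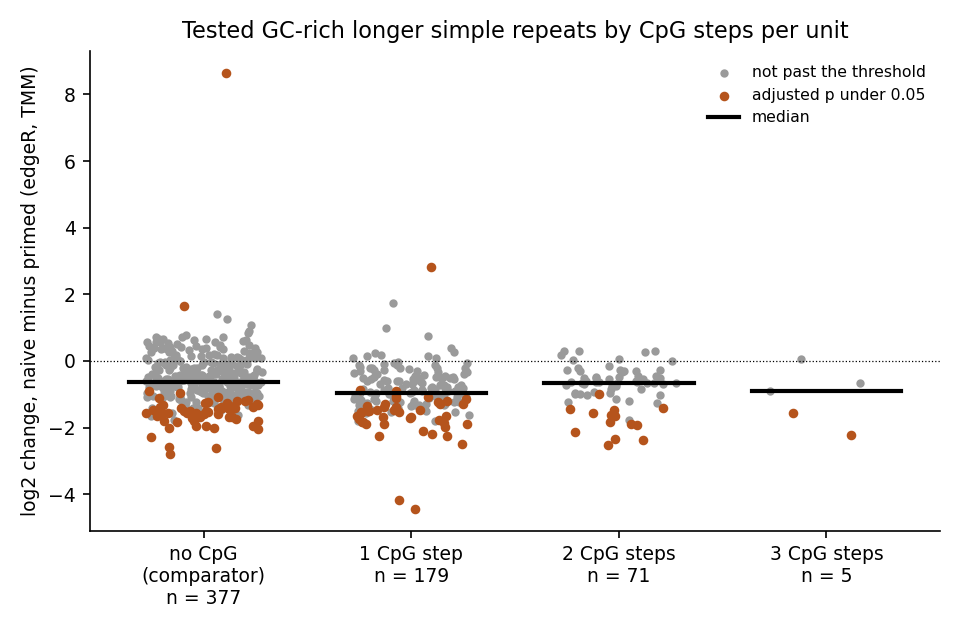
Log2 change of naive minus primed (edgeR, TMM) for each tested GC-rich longer simple repeat without CpG and for members with 1, 2 or 3 CpG steps per unit; black bars are medians and orange points passed an adjusted p of 0.05. The medians are -0.63 without CpG and -0.96, -0.68 and -0.92 for 1 to 3 steps, with wide overlap.

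GC-rich longer simple repeats without CpG moved in the same direction by a smaller median. Of 377 tested, 59 were lower, or 15.6%, and the median log2 change was -0.63. The comparison was repeated at equal unit length and equal number of G or C bases. Among 6-base units with 4 such bases, the median was -1.09 with CpG (21 tested) and -0.71 without (151 tested). With 5 such bases it was -1.002 (88 tested) and -0.82 (48 tested). The CpG median was lower in all 4 combinations that had at least 5 tested units on each side. The share of units below 0 was higher with CpG in the 6-base combinations only. With 4 of 5 bases G or C it was 76.5% with CpG and 93.6% without, and with 6 of 7 it was 85.7% and 92.3%. Units made of G and C only, 100 of the tested members, were left out of this comparison. The gap between the medians is small beside the spread of members, whose middle 50% ran from -1.33 to -0.51 with CpG and from -1.08 to -0.18 without, and it was not tested. Summed, the repeats without CpG were at 2930, 2466 and 2357 TMM CPM in naive and 4974, 2663 and 3828 TMM CPM in primed libraries. Primed library 2 again lay within the naive range. Their ratio of primed to naive mean was 1.48, beside 1.39 for all members and 1.59 without the 2 most abundant members.

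Lower calls were found among C-rich units, G-rich units and units with equal G and C. Of 136 tested units with more C than G, 31 were lower (median -0.84). Of 91 with more G than C, 19 were lower (median -0.96). Of 28 with equal G and C, 9 were lower (median -1.03). A run of at least 3 guanines or cytosines, the element from which G-quadruplex and i-motif structures are built, was present in 116 tested members, with 26 lower (median -0.86). Of the 139 without such a run 33 were lower (median -0.93). The strand setting of the counting is not given in the sources, so a C-rich entry cannot be assigned to transcription of its C-rich strand.

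The lower calls named here are the 8 with the largest changes among members with a mean of at least 2 TMM CPM and groups that do not overlap. Other called members, outside that rule, changed as much or more. (GCCCAGC)n had counts of 15, 16 and 8 (naive libraries 1 to 3) and of 214, 6 and 140 (primed libraries 1 to 3), or 1.71, 1.43 and 0.562 against 27.1, 33.6 and 13.9 TMM CPM. It was high in all primed libraries, the shallow one included, and the groups did not overlap. The log2 change was -4.18 ± 0.45 (SE, edgeR adjusted p = 0.000969), with values from -4.58 to -3.75 over the 6 fits that each omit 1 library.

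(GCTCGGC)n, with 2 CpG steps, had 20, 19 and 22 counts in naive and 100, 1 and 92 in primed libraries. This is 2.28, 1.70 and 1.54 against 12.7, 5.59 and 9.16 TMM CPM, with no overlap. For primed library 2 the separation rests on that 1 count. Its log2 change was -2.53 ± 0.34 (SE, edgeR adjusted p = 0.00443). Without primed library 1 it was -2.28 (edgeR adjusted p = 0.0341). (GGCGGT)n, a more abundant hexamer, stood at 7.85, 6.09 and 6.32 TMM CPM in naive and 31.5, 16.8 and 20.1 TMM CPM in primed libraries, from 68 to 90 and from 3 to 249 counts. Its log2 change was -1.89 ± 0.27 (SE, edgeR adjusted p = 0.00611) and -1.56 without primed library 1 (edgeR adjusted p = 0.0384). These 3 are the members still called lower in that fit.

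The other 5 of these 8 members lost their call without primed library 1. (GCTCCC)n had 14.5, 6.36 and 10.5 TMM CPM in naive and 77.3, 16.8 and 31.8 TMM CPM in primed libraries, with primed library 1 far above the rest. Its log2 change went from -2.26 ± 0.40 (SE, edgeR adjusted p = 0.0108) to -1.51 (edgeR adjusted p = 0.0877). For (CGAGGA)n the change went from -2.48 (edgeR adjusted p = 0.00814) to -2.19 (0.0751), and for (CCGCCGC)n from -2.12 (0.00959) to -1.82 (0.0766). (GTCCCC)n went from -2.25 (edgeR adjusted p = 0.0188) to -1.86 (0.246) and (TGCGGC)n from -1.99 (0.0189) to -1.48 (0.263). (GTCCCC)n also missed the threshold without naive library 2 (-2.12, 0.0505). The other 4, beside (GCTCCC)n, each had 1 count in primed library 2, and that count alone sets the level there. It thus also enters the mean level and the lack of overlap by which these members were named. With DESeq2 on the same entries (GTCCCC)n and (TGCGGC)n did not pass (adjusted p = 0.0847 and 0.0897).

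(GCTCGGA)n, singled out after its values were seen, lay below the level required for naming. It had 0, 1 and 1 counts in naive and 16, 1 and 10 in primed libraries. Its fitted log2 change of -4.44 ± 0.72 (SE, edgeR adjusted p = 0.00959) was the largest of the lower calls and rests on these few counts. Its unit shares 6 of 7 letters with that of (GCTCGGC)n, whose pattern over the libraries is similar.

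**Figure D4:**
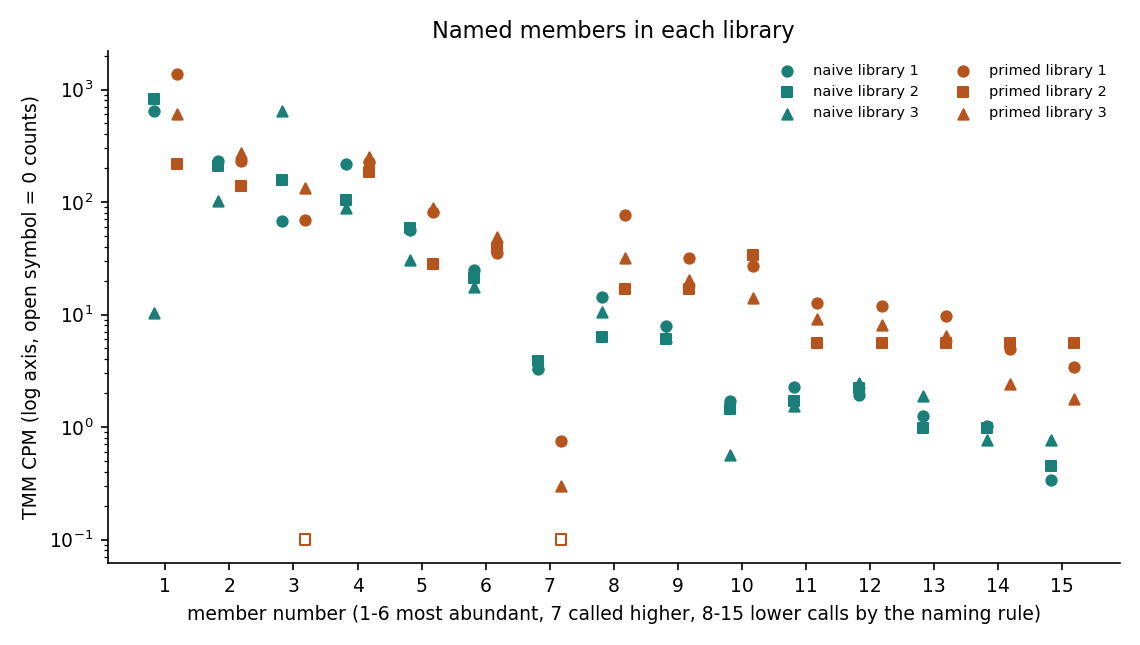
TMM CPM (log axis) of 15 named members in each library, naive in green and primed in orange; open symbols are 0 counts. Numbers 1 to 6 are the most abundant members in falling order of mean TMM CPM, from (CGAGCCG)n to (GCCGCG)n. Number 7 is (GGACG)n, and numbers 8 to 15 are the 8 lower calls chosen for size among members whose groups do not overlap, also in falling order of mean level, with (GCTCCC)n at 8, the heptamer (GCCCAGC)n at 10 and (GTCCCC)n at 15. Numbers 1 and 3 show naive library 3 apart from the other naive libraries, lowest in the former and highest in the latter.

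Of the 6 most abundant members, 5 did not pass the test. (CGAGCCG)n stood at 639, 830 and 10.3 TMM CPM in naive and 1373, 218 and 606 TMM CPM in primed libraries. Naive library 3 was far below all others and the groups overlapped (adjusted p = 0.687 by edgeR, log2 -0.63 ± 0.96 SE). Without primed library 1 its change was 0.14. Its level moved with that of ribosomal RNA, which is made from GC-rich tandem gene copies. For every 1000 counts in ribosomal RNA entries there were 9.49, 9.33 and 5.22 counts of (CGAGCCG)n in naive and 8.51, 8.13 and 9.37 in primed libraries, while the ribosomal share itself ran from 0.169% to 17.7%. Whether these reads come from ribosomal DNA was not tested. Of the counts in its 10 rotations and reverse complements, 99.7% were in this entry.

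**Figure D5:**
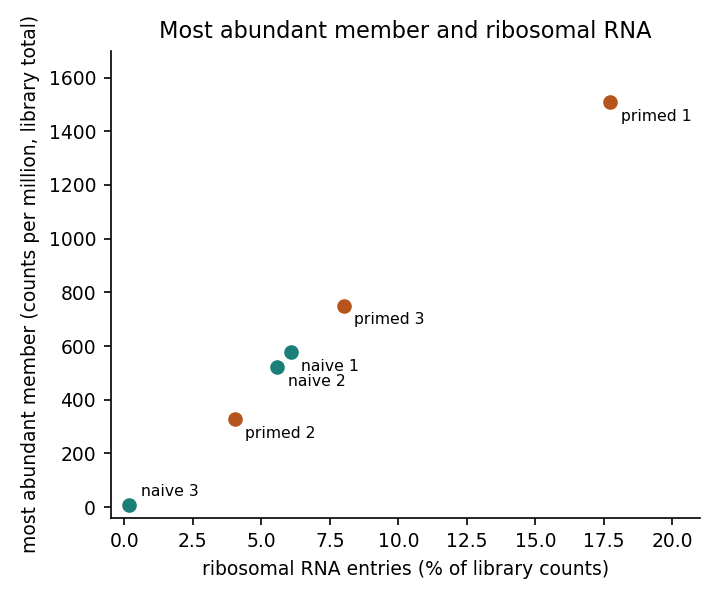
Level of (CGAGCCG)n (CPM of the plain library total, vertical axis) against the share of ribosomal RNA entries in percent, for the 6 libraries (naive green, primed orange). Naive library 3, with a ribosomal share of 0.169%, is lowest and primed library 1, with 17.7%, is highest.

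(GGCCC)n had 601, 1742 and 9230 counts in naive and 550, 0 and 1346 in primed libraries, or 68.4, 156 and 648 against 69.6, 0 and 134 TMM CPM. Naive library 3 stood alone and the groups overlapped (log2 1.75 ± 0.73, SE, edgeR adjusted p = 0.128). Without naive library 3 the change was 0.38 (edgeR adjusted p = 0.592), and without naive library 1 it passed with 2.24 (0.00514). Naive library 3 was thus highest in this member and lowest in (CGAGCCG)n among the 6 libraries.

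The hexamer (CCGGCC)n was at 230, 210 and 103 TMM CPM in naive and 231, 140 and 272 TMM CPM in primed libraries (adjusted p = 0.468 by edgeR, log2 -0.32 ± 0.28 SE). (CCCGT)n was at 220, 104 and 88.7 against 227, 185 and 250 TMM CPM (adjusted p = 0.118 by edgeR, log2 -0.72 ± 0.29 SE). In both, naive library 1 reached the primed range, and for (CCGGCC)n naive library 2 did as well. Without naive library 1, (CCCGT)n passed with -1.20 (edgeR adjusted p = 0.000403). (GCCGCG)n, with 2 CpG steps that form the alternating run CGCG, was at 24.7, 20.97 and 17.4 TMM CPM in naive and 34.9, 39.2 and 48.4 TMM CPM in primed libraries, without overlap. It fell by 0.98 in log2 units (SE 0.21, edgeR adjusted p = 0.0189), but did not pass without naive library 3 (-0.83, edgeR adjusted p = 0.0507), primed library 1 (-1.17, 0.0513) or primed library 3 (-0.77, 0.0663), nor with simple repeats fitted alone (-0.61, 0.151).

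Some 6-base members are 2 copies of the trinucleotide CCG or its complement, whose expansion as CGG in the FMR1 gene underlies fragile X syndrome. (CGCCGC)n, the most abundant of these, was at 56.4, 58.6 and 30.2 TMM CPM in naive and 81.6, 27.97 and 88.4 TMM CPM in primed libraries. It did not pass (log2 -0.68 ± 0.28, SE, edgeR adjusted p = 0.128), nor did the other 5 tested members of this kind, which lay between -0.98 and 0.28. Among the 6 trinucleotide entries themselves, (GCC)n with -0.91 (edgeR adjusted p = 0.0156) and (GCG)n with -1.06 (0.0108) fell. The others did not pass: (CCG)n with -0.66 (edgeR adjusted p = 0.0679), (CGG)n with -0.74 (0.0929), (GGC)n with -0.75 (0.125) and (CGC)n with -0.73 (0.0686).

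With 3 CpG steps, (CGACGCG)n had 15, 10 and 35 counts in naive and 46, 1 and 44 in primed libraries, or 1.71, 0.896 and 2.46 against 5.82, 5.59 and 4.38 TMM CPM. It fell by 1.57 in log2 units (SE 0.42, edgeR adjusted p = 0.0344). It did not pass without naive library 2 (-1.24, edgeR adjusted p = 0.132), primed library 1 (-1.38, 0.271) or primed library 3 (-1.75, 0.0529), nor by DESeq2 (adjusted p = 0.154). (CGCGCGG)n, a nearly uninterrupted CG run, was at 1.59, 2.06 and 1.54 against 4.3, 5.59 and 2.19 TMM CPM (log2 -0.92, edgeR adjusted p = 0.148). A different start of the same circle read on the opposite strand, (GCGCCGC)n, fell by 2.21 (SE 0.41, edgeR adjusted p = 0.0133) with 0 counts in primed library 2.

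The member called higher, (GGACG)n, had 29, 43 and 52 counts in naive and 6, 0 and 3 in primed libraries. This is 3.30, 3.85 and 3.65 against 0.759, 0 and 0.299 TMM CPM, with no overlap. The fitted log2 change was 2.81 ± 0.49 (SE, edgeR adjusted p = 0.0106), and 3.56 without primed library 1 (edgeR adjusted p = 0.0513). By DESeq2 it gave 2.64 (adjusted p = 0.0665).

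Entries that start the same circular unit at another base write out the same tandem sequence, yet they are counted as separate entries. (CGGGA)n is a rotation of (GGACG)n and went the other way, with 8, 5 and 7 counts in naive and 17, 1 and 15 in primed libraries (adjusted p = 0.0440 by edgeR, log2 -1.64 ± 0.47 SE). That call was lost without naive library 2 or 3 or any 1 primed library (edgeR adjusted p up to 0.347), and DESeq2 did not call it (adjusted p = 0.286). (CCCGT)n, the reverse complement of a further rotation, holds 96.4% of the counts of this family and did not pass. The 3 entries were chosen for this comparison after their values were seen.

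The 1608 members reduce to 462 families of rotations and reverse complements, and the 59 lower calls fell in 43 of them. With the members of each family summed before the fit, 104 families were tested and 40 were lower, beside 7.99% of all entries in that fit. None was higher by edgeR (0 at an unadjusted p under 0.05), and the median log2 change was -0.89. In 13 of 44 families with at least 2 tested members, members had changes of both signs. The family of AGCGGC had the most lower calls, 4 of 8 tested members, and summed to 44.9, 41.4 and 47.2 TMM CPM in naive and 118, 61.5 and 72.9 TMM CPM in primed libraries. All naive sums lay below all primed ones (log2 -1.05 ± 0.20, SE, edgeR adjusted p = 0.0159).

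The families with the most counts did not pass as sums. They were those of (CGAGCCG)n with -0.64 (edgeR adjusted p = 0.684), (GGCCC)n with 1.16 (0.206) and (CCGGCC)n with -0.43 (0.263). The family of CCCCG, in which 3 of 8 tested members were lower, gave -0.77 ± 0.23 (SE, edgeR adjusted p = 0.0527). The family of the trinucleotide CCG, which has no called member, passed as a sum of its members of 5 or more bases (-0.64 ± 0.19, SE, edgeR adjusted p = 0.0488). The first 3 families are carried by 1 entry each, with 99.7%, 85.6% and 75.3% of the counts, whereas the top entry of the CCCCG family holds 16.8%.

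Promoter windows show where such runs occur in the reference. In the 35116 RefSeq promoter windows of 300 bases (GRCh38.p14), 3 perfect tandem copies of a unit from the 458 families with a period of 5 or more bases were found on either strand in 589 windows, or 1.68%. The 495 families of GC-rich units without CpG were found in 197, or 0.561%. CCCCG and its rotations accounted for 310 windows and the family of (GGCCC)n for 34, while the family of (CGAGCCG)n had 0. A match is a description of these windows and does not place any count, since the counts are summed over all copies.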

How the data were processed

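Chromatin-fraction RNA of H9 cells was sequenced in 3 naive and 3 primed libraries, made with a directional kit per the labels' protocols. Trimmomatic 0.39, STAR 2.7.8a, featureCounts and Subread 2.14.2 are named per the submitters' processing notes; genome build, repeat annotation, strand setting and multi-mapping rule are not given in the sources, so reads can move between near-identical repeats. The deposited values are raw counts per repeat name. Columns were matched to samples by title.

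All entries were fitted with edgeR 4.0.16 in R 4.3.3 (TMM, filterByExpr, quasi-likelihood F-test, Benjamini-Hochberg over 3219 entries, threshold 0.05). The SE is the log2 change divided by the square root of F. Only members are reported. The method was tested on simulated counts. All libraries were drawn there from a common set of mean levels with changes planted between the groups. That test therefore does not cover departures of a single library. The members and lists were chosen with earlier results of these data known. Named members are the 8 largest called lower changes (mean of at least 2 TMM CPM, groups not overlapping), the 6 most abundant, the 2 most abundant per number of CpG steps, every higher call, and the top entry of the 3 largest families; (CGGGA)n, then the entry (GCTCGGA)n, a rotated 3-step entry, the trinucleotide entries and the AGCGGC, CCG and CCCCG families were added after values were seen. Alternatives were other scaling factors, DESeq2 1.42.0, other filters, removal of entries, summed families, thinning, a replicate block and each library left out. Figures used matplotlib 3.10.9.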

Additional observations from a re-analysis of the deposited data

How the results depend on the processing

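Against 59 members called lower, DESeq2 1.42.0 called 22 of 116 (5.37% of all entries in that fit were lower), or 23 on the entries kept by the edgeR filter (3.7%, chosen after seeing the data), library size alone 182 (32.6%) and no filter 152 of 1145 (5.86%). With every library thinned to 118793 counts, 7 members were tested and edgeR called 0 (0 at an unadjusted p under 0.05). With 1 library left out the count ran from 3 (without primed library 1, 0.202% of all entries) to 96 (without naive library 1, 11.8%); it was 31 without naive library 2 (3.44%) and 95 without primed library 2 (9.59%). By CpG steps (43, 14 and 2 for 1, 2 and 3 steps), these became 16, 6 and 0 with DESeq2, 17, 6 and 0 with DESeq2 on the edgeR filter, 134, 45 and 3 with library size alone, 116, 31 and 5 without a filter and 0 in each class when thinned. Leaving out 1 library gave 2 to 75, 1 to 20 and 0 to 3. For 3 steps, fitting simple repeats alone and summing families each gave 1.

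For the 1 member called higher, both DESeq2 fits, thinning and summed families gave 0; library size alone, simple repeats fitted alone and the replicate block gave 2, no filter 12, and leaving out 1 library 0 to 2. Library size alone moved the median of all entries from -0.0046 to -0.61 and that of members from -0.89 to -1.46, so members less all entries went from -0.88 to -0.85. With simple repeats fitted alone, 43 of 298 members (14.4%) were lower, beside 6.75% of all entries in that fit. The members lay 0.59 below the median of that fit (a difference of -0.59). The naive minus primed share was -0.211 points, -0.438 of simple repeat counts, and -0.269 to -0.151 with 1 library left out. The replicate number as a block called 79 members lower, beside 11.6% of all entries against 7.77% without it. Same-numbered libraries correlated at 0.15, 0.087 and 0.066, each best with its own number, but not all above 0.1, so the numbers were not taken to pair the libraries. Over all refits of the 18 named members, 238 kept direction and side of the threshold, 27 lost the call and 17 gained one. The 2 others changed direction without passing in either fit: (CGAGCCG)n went from -0.63 to 0.14 without primed library 1 (-1.18 to 0.14 over all fits that omit 1 library), and the log2 change of (CCGGCC)n from -0.32 to 0.12 with simple repeats fitted alone. The cause was not tested.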
